A study of Mus musculus with 10 samples.

Results

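The collagen genes of tumor-draining lymph nodes (TDLNs) were compared between mice treated by microwave ablation (MWA) with and without 2-deoxy-D-glucose (2DG). They were chosen by name, as every gene whose symbol reads Col, a number, a and a number, which gave 44 of the 33585 genes in the expression tables. By chain type, 11 were fibrillar, 8 belonged to the basement membrane and 25 were other collagens. The members were named by symbol and not by cell of origin, so the stroma enters only as the tissue in which such genes are usually expressed.

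The data were bulk RNA-seq of whole TDLNs from female BALB/c mice aged 6 weeks that carried tumors of 4T1, a mouse mammary carcinoma cell line, in a mammary fat pad. All mice had their tumor ablated with microwave heat on day 10. From then on they were injected intraperitoneally every 2 days, with PBS in the MWA group and with 500 mg/kg 2DG, a glucose analogue that inhibits glycolysis, in the MWA+2DG group. The labels name no PBS, which comes from the methods, and no node of a mouse without ablation was analysed here. Nodes were collected on day 15, and each group had 5 libraries, 1 per mouse. The values were FPKM, that is read fragments scaled to transcript length and to the mapped reads of the library, which allow levels to be set side by side between genes but hold no read counts, so sequencing depth is unknown. The T cell gene Cd3e was at 24.2 to 38.8 FPKM in every library, and Ccl21a, the chemokine of reticular and lymphatic cells, at 891 to 1674 FPKM.

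Collagens are mostly secreted proteins whose alpha chains wind into a helix before they are assembled outside the cell. Fibrillar collagens form banded fibers, type IV collagen forms the sheet of the basement membrane, and the remaining members coat fibers, form beaded filaments or sit in the cell membrane. In lymph nodes, fibroblastic reticular cells lay down a conduit system in which a core of collagen fibers is wrapped in basement membrane and carries lymph fluid and small antigens through the T cell zone.

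The promoters of 4 members are shown because these genes recur in the results, and no link between promoter sequence and level was tested. Col4a1 and Col4a2 encode the partner chains of type IV collagen and start head to head from neighbouring sites, Col1a2 encodes a chain of type I collagen and serves for comparison, and Col11a2 was the only member past the significance rule. The windows are from RefSeq (GRCm38.p6), run 5′ to 3′ on the gene's own strand and hold 250 bases before and 50 bases after the annotated start. They lie at chr8:11312777-11313076 on the minus strand for Col4a1, chr8:11312555-11312854 on the plus strand for Col4a2, chr6:4505368-4505667 on the plus strand for Col1a2 and chr17:34038888-34039187 on the plus strand for Col11a2. Capitals mark the GC box GGGCGG and the CCAAT box CCAAT, each read on both strands, so that CCGCCC and ATTGG are marked too.
Col4a1: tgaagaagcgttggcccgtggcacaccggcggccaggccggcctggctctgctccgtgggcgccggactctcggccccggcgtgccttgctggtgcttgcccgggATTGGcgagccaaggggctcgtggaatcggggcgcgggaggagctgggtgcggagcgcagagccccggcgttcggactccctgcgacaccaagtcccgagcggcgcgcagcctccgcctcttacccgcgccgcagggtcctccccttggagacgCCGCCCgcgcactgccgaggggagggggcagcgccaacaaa
Col4a2: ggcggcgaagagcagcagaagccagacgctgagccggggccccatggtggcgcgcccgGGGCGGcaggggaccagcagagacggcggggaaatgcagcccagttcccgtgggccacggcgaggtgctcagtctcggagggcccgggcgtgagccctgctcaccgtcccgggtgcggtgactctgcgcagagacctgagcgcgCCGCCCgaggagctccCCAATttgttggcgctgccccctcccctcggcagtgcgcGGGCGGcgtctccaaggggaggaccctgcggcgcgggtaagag
Col1a2: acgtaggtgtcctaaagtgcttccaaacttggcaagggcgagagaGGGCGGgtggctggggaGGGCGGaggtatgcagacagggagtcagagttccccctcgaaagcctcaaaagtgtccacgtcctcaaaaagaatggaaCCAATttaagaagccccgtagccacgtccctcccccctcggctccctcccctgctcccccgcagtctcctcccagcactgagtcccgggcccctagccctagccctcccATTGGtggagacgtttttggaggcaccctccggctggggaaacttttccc
Col11a2: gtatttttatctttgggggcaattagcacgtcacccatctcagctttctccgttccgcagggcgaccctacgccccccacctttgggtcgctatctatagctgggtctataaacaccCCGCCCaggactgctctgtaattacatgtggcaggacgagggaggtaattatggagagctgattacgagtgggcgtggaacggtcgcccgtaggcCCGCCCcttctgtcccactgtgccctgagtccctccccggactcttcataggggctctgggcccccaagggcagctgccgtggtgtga
The windows of Col4a1 and Col4a2 shared 78 bases and had a GC content of 74% and 73.7%, against 61% for Col1a2 and 59% for Col11a2. GC boxes numbered 1 in the Col4a1 window, 3 in Col4a2, 2 in Col1a2 and 2 in Col11a2. A CCAAT box was found in each of these windows but that of Col11a2. Windows were found for 35 of the 44 members, 38 windows in all. Of these, 23 (60.5%) held a GC box and 13 (34.2%) a CCAAT box, while among all 32851 promoter windows of this length the shares were 35.7% and 37.4%. These matches describe the letters in the windows and not the binding of any factor.

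A small number of genes made up most of the collagen signal. Col4a1, Col1a1, Col6a1, Col1a2, Col4a2 and Col3a1, in this order, together held 68.0% of the mean collagen FPKM, and Col4a1 alone held 14.4%. A gene was tested if its level averaged 1 FPKM or more across the 10 libraries, a filter that 19 of the 44 members passed, namely 7 of 11 fibrillar, 4 of 8 basement membrane and 8 of 25 other collagens. Of the other collagens, 4 of 6 type VI chains, 3 of 9 fiber-associated (FACIT) chains and 1 of 4 transmembrane chains passed, and none of the 3 short-chain network collagens (Col8a1, Col8a2 and Col10a1) or of the group of Col7a1, Col26a1 and Col28a1. In a bulk sample, fewer cells of a type and less RNA per cell cannot be told apart, which holds for every level below.

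The 25 members under the filter had means between 0.00149 FPKM (Col4a6) and 0.905 FPKM (Col9a3). The means of 12 of them were under 0.1 FPKM, and 9 were listed at 0 in at least 1 library. Among the fibrillar genes these were Col2a1 and Col11a1, chains of cartilage fibers, together with Col5a3 (0.248 to 1.21 FPKM) and Col24a1. In the basement membrane class they were Col4a3, Col4a4, Col4a5 and Col4a6, the type IV chains of kidney and other specialised membranes, all at 0.218 FPKM or less in every library. The highest of the other collagens under the filter were Col9a3 (0.493 to 1.99 FPKM), Col28a1 (0.517 to 0.805 FPKM), Col7a1, the anchoring fibril collagen (0.435 to 0.724 FPKM), and Col12a1 (0.385 to 0.713 FPKM). The remaining ones, Col9a1, Col9a2, Col19a1, Col22a1, Col6a5, Col6a6, Col13a1, Col17a1, Col25a1, Col26a1, Col8a1, Col8a2 and Col10a1, had means of 0.396 FPKM (Col9a2) or less. The lowest exact permutation p among the members under the filter was 0.0317 for Col6a5, a type VI chain, at 0.160 ± 0.0470 FPKM with MWA and 0.0618 ± 0.0517 FPKM with MWA+2DG (SD, n = 5, two-sided exact permutation test), and its groups overlapped.

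**Figure D1:**
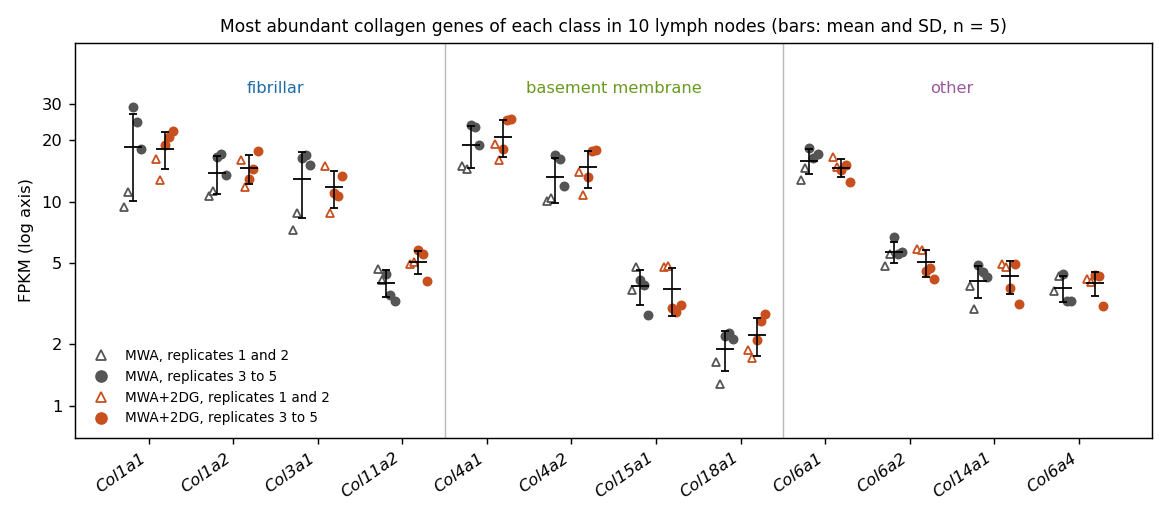
FPKM on a log axis for the 4 most abundant collagen genes of each class in the 5 MWA (gray) and 5 MWA+2DG (orange) libraries, with triangles for replicates 1 and 2, circles for replicates 3 to 5, and bars for mean and SD. The groups overlap for all 12 genes, and Col11a2 has 4 of 5 MWA+2DG libraries above the highest MWA library.

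To see whether 2DG after MWA changed the collagen genes, the groups were compared over all genes on log2(FPKM + 1) with limma. A gene was called at P below 0.05 and a log2 fold change beyond 0.25, the thresholds of the original work, with MWA+2DG minus MWA as the direction. Only Col11a2 was called higher among the 19 tested members, and none was called lower. Over all 13334 genes tested, 0.952% were called higher and 1.87% lower, 127 and 249 genes, and none passed a Benjamini-Hochberg adjusted p of 0.05 in limma, where 4.25% (567 genes) had an unadjusted P below 0.05. Of these calls 33.8% were higher, a share that became 67.4% when each library was rescaled to the same total. The groups of MWA and MWA+2DG libraries overlapped in all 44 members, against 0.802% of all tested genes without overlap. Log2 fold changes of the 19 members lay between −0.14 (Col6a2) and 0.28 (Col11a2), and 14 were above 0, with a median of 0.06 beside a median of 0.01 over all genes.

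The fibrillar class was led by type I and type III collagen, the main fiber formers of connective tissue. Col1a1, the alpha-1 chain of type I, was at 9.44, 11.2, 29.0, 24.7 and 18.1 FPKM in MWA libraries 1 to 5, and at 16.1, 12.8, 19.0, 20.7 and 22.2 FPKM in MWA+2DG libraries 1 to 5. MWA libraries held both the lowest and the highest level, and the MWA+2DG libraries lay between them. Their means were 18.5 ± 8.43 and 18.2 ± 3.74 FPKM (SD, n = 5), with a log2 fold change of 0.07 ± 0.28 (SE) and an adjusted p of 0.995 in limma. Col1a2, its partner chain, was at 10.7, 11.3, 16.6, 17.1 and 13.5 FPKM with MWA and at 16.1, 11.7, 12.9, 14.4 and 17.7 FPKM with MWA+2DG. Levels overlapped broadly here too, with a log2 fold change of 0.08 (95% interval −0.25 to 0.41).

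Col3a1, the type III chain of the thin reticular fibers for which reticular cells are named, was at 7.24, 8.78, 16.4, 17.0 and 15.0 FPKM with MWA and at 14.9, 8.77, 11.0, 10.7 and 13.4 FPKM with MWA+2DG. Although 3 MWA libraries lay above every MWA+2DG library, the other 2 were among the 3 lowest of all 10. The log2 fold change was −0.07 (95% interval −0.59 to 0.44). The chains of type V collagen, which sets fiber width, were lower in level, with Col5a1 at 2.32 ± 0.632 and 2.68 ± 0.477 FPKM and Col5a2 at 2.04 ± 0.408 and 2.05 ± 0.313 FPKM (SD, n = 5). Their log2 fold changes were 0.16 and 0.01, and that of Col27a1 was 0.00, none past the rule.

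Col11a2 (ENSMUSG00000024330), a chain of type XI collagen best known from cartilage, was at 4.70, 4.15, 4.41, 3.51 and 3.28 FPKM with MWA and at 4.94, 5.04, 5.78, 5.57 and 4.09 FPKM with MWA+2DG. All MWA+2DG libraries but replicate 5 lay above the highest MWA library. Means were 4.01 ± 0.601 and 5.08 ± 0.658 FPKM (SD, n = 5), and the log2 fold change was 0.28 ± 0.11 (SE), with P = 0.0218 and an adjusted p of 0.995 in limma and p = 0.0476 in a two-sided exact permutation test. The call rested on several single libraries. It did not hold without MWA replicate 4 (log2 fold change 0.246), MWA replicate 5 (0.228), MWA+2DG replicate 3 (0.241) or MWA+2DG replicate 4 (0.253, past the fold threshold but not the P threshold). Its partners of cartilage fibers were near 0, with Col2a1 at 0.144 FPKM or less and Col11a1 at 0.261 FPKM or less in every library. So was the cartilage proteoglycan Acan, at 0.0881 FPKM or less. Chad, the only tested gene of the cartilage and bone markers, was not, at 1.31 to 3.56 FPKM. Its log2 fold change was 0.15 and it was not called. Rxrb, which lies beside Col11a2 in the genome, was at 18.8 to 25.6 FPKM with a log2 fold change of 0.08 that was not called.

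**Figure D2:**
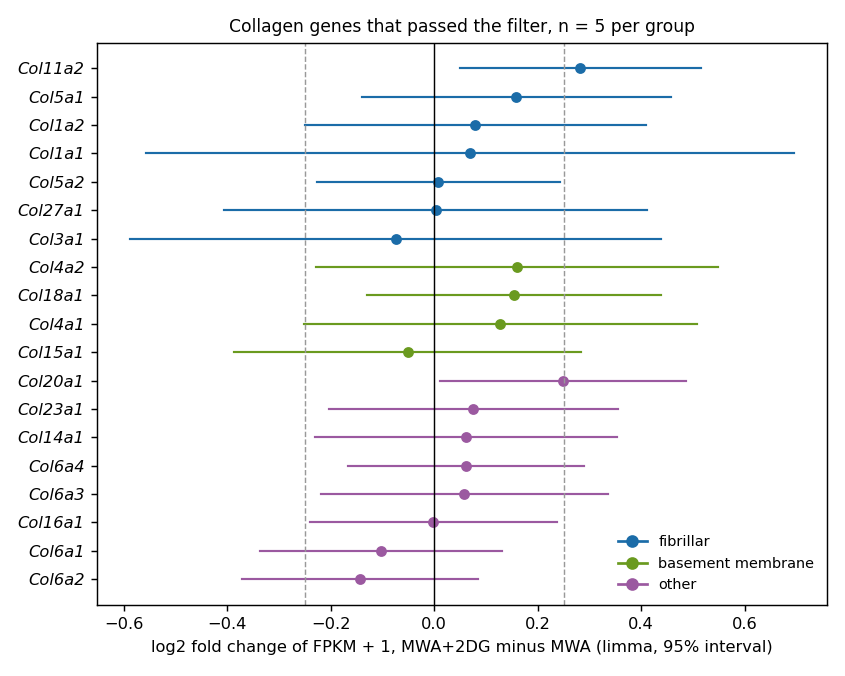
Log2 fold change of FPKM + 1, MWA+2DG minus MWA, with its 95% interval from limma for the 19 collagen genes tested, colored by class. Dashed lines mark 0.25 in both directions, and the intervals of Col11a2 and Col20a1 alone lie wholly above 0.

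No basement membrane collagen was called. The median log2 fold change of the tested genes was 0.14 in this class, 0.07 for fibrillar and 0.06 for other collagens, an order that turned without MWA+2DG replicate 5 (0.069, 0.010 and 0.080) and with no filter, where the medians over all members were 0.0077, 0.0082 and 0.0049. Col4a1 (ENSMUSG00000031502), the most abundant collagen gene, was at 15.0, 14.4, 23.7, 23.1 and 19.0 FPKM with MWA and at 19.2, 16.0, 18.1, 25.2 and 25.5 FPKM with MWA+2DG. Col4a2 (ENSMUSG00000031503) was at 10.1, 10.4, 16.9, 16.3 and 12.0 FPKM with MWA and at 14.0, 10.7, 13.2, 17.6 and 18.0 FPKM with MWA+2DG. For both genes MWA+2DG replicates 4 and 5 were above all MWA libraries, while the other 3 lay within the MWA range. Log2 fold changes were 0.13 (95% interval −0.25 to 0.51) for Col4a1 and 0.16 (95% interval −0.23 to 0.55) for Col4a2.

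Col15a1 and Col18a1 encode the linker collagens between basement membrane and neighbouring fibers, and a fragment cut from the Col18a1 protein is known as endostatin. Col15a1 was at 3.71, 4.81, 4.15, 3.90 and 2.78 FPKM with MWA and at 4.78, 4.84, 3.03, 2.89 and 3.13 FPKM with MWA+2DG, with a log2 fold change of −0.05. Col18a1 was at 1.64, 1.28, 2.20, 2.27 and 2.13 FPKM with MWA and at 1.88, 1.72, 2.10, 2.62 and 2.82 FPKM with MWA+2DG, with a log2 fold change of 0.15 (two-sided exact permutation p = 0.302). The 2 highest Col18a1 levels belonged to MWA+2DG libraries and the lowest to MWA libraries, with overlap between them.

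Type VI collagen, which forms beaded filaments around cells, held most of the signal among the other collagens. Col6a1 was at 12.8, 14.6, 18.4, 16.4 and 17.2 FPKM with MWA and at 16.5, 14.9, 14.3, 15.2 and 12.4 FPKM with MWA+2DG. Col6a2 was at 4.85, 5.53, 6.70, 5.51 and 5.69 FPKM with MWA and at 5.90, 5.83, 4.57, 4.73 and 4.20 FPKM with MWA+2DG. These were the lowest log2 fold changes of the 19, −0.10 for Col6a1 (95% interval −0.34 to 0.13) and −0.14 for Col6a2 (95% interval −0.37 to 0.08). Col6a4 was at 3.66, 4.32, 4.43, 3.26 and 3.26 FPKM with MWA and at 4.16, 4.02, 4.35, 4.31 and 3.09 FPKM with MWA+2DG, and Col6a3 had means of 2.46 ± 0.446 and 2.61 ± 0.568 FPKM (SD, n = 5). Both had a log2 fold change of 0.06.

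Among the FACIT chains, which coat fibers, Col14a1 was at 3.86, 2.99, 4.87, 4.53 and 4.27 FPKM with MWA and at 4.94, 4.79, 3.80, 4.96 and 3.17 FPKM with MWA+2DG, with a log2 fold change of 0.06. Col20a1 (ENSMUSG00000016356) was at 2.27, 2.28, 1.81, 2.09 and 1.34 FPKM with MWA and at 2.48, 2.81, 2.80, 2.04 and 2.37 FPKM with MWA+2DG. All MWA+2DG libraries but replicate 4 lay above the MWA libraries. Its log2 fold change of 0.249 lay just under the fold threshold (limma P = 0.0412, adjusted p of 0.995, two-sided exact permutation p = 0.0476) and passed it with a pseudocount of 0.1, after rescaling and after quantile normalization. An exon of Col20a1 overlaps that of BX649560.1 on the same strand, listed at 1.47 to 3.08 FPKM, so reads of the overlapping part may have been shared between them. Col16a1 (log2 fold change −0.00) and the transmembrane chain Col23a1 (0.08) did not pass the rule.

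The levels were also summed over each class. Fibrillar collagens added up to 56.9 ± 16.7 FPKM with MWA and 57.9 ± 6.98 FPKM with MWA+2DG (SD, n = 5). Basement membrane collagens added up to 38.1 ± 7.93 and 41.7 ± 7.20 FPKM, and the other collagens to 41.0 ± 4.05 and 40.8 ± 3.83 FPKM. As a share of all collagen FPKM, the fibrillar class held 41.2% in both groups. In each class the difference of the means was smaller than the SD between libraries.

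Some partner chains held a nearly fixed ratio from node to node. The FPKM of Col4a1 over that of Col4a2 stayed between 1.37 and 1.58 in all 10 libraries, with a coefficient of variation of 4.66%, although each gene alone varied by 21.0% and 22.3%. Col6a1 over Col6a2 varied by 7.81%, between 2.55 and 3.21, where each gene alone varied by only 12.4% and 14.1%. This did not extend to Col6a3, another type VI chain that alone varied by 19.3%. Col6a1 over Col6a3 ran from 4.83 to 9.14 with a coefficient of variation of 21.2%. Col1a1 over Col1a2, also partner chains, ran from 0.882 to 1.74 with a coefficient of variation of 21.4%, and Col5a1 over Col5a2 from 1.03 to 1.79. No difference between MWA and MWA+2DG was detected in these ratios (two-sided exact permutation p of 0.405, 0.381, 0.333, 0.984 and 0.278, n = 5 per group). The smallest p that this design allows is 0.00794. The exons of Col4a1 and Col4a2 overlap at their starts on opposite strands. The library protocol marked strand, but whether quantification used it is not stated, so how far shared reads enter their ratio was not tested.

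**Figure D3:**
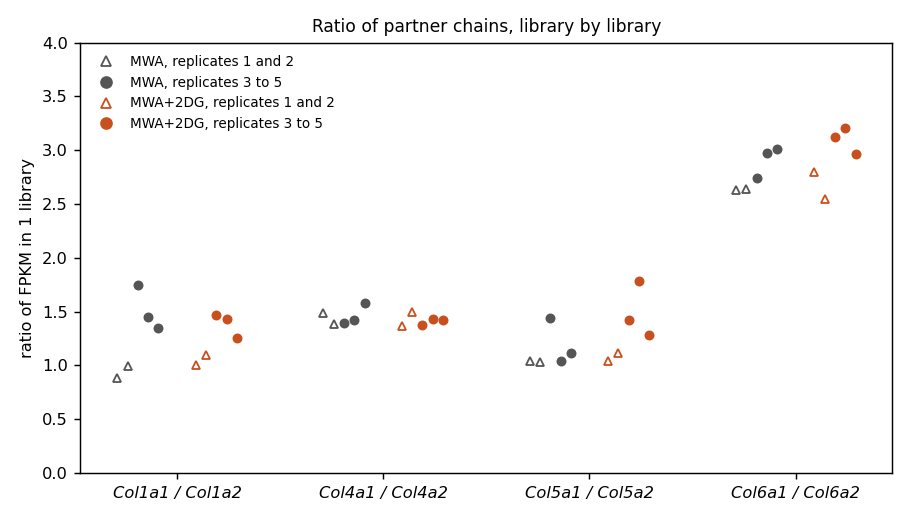
Ratio of the FPKM of partner chains in each library, with MWA in gray, MWA+2DG in orange, triangles for replicates 1 and 2 and circles for replicates 3 to 5. Col4a1 over Col4a2 stays between 1.37 and 1.58, while Col1a1 over Col1a2 is at most 1.09 in replicates 1 and 2 and at least 1.25 in replicates 3 to 5.

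Within both groups, the libraries of replicates 1 and 2 stood apart from those of replicates 3 to 5. The labels give no reason for this, and the split was found in the data, where the first principal component separated the sets and held 36.4% of the variance. In Col1a1 the sets did not overlap, with 9.44 to 16.1 FPKM in replicates 1 and 2 and 18.1 to 29.0 FPKM in replicates 3 to 5. Col18a1 likewise lay at 1.88 FPKM or less and at 2.10 FPKM or more. These were 2 of 19 tested members, while 9.84% of all tested genes had no overlap between the sets. Under the filter, Col2a1 (at most 0.0114 FPKM against at least 0.0850 FPKM) and Col11a1 (at most 0.0286 against at least 0.120 FPKM) were divided in the same way, as was Acan, listed at 0 in replicates 1 and 2 and at 0.0477 FPKM or more in the others.

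Other transcripts were divided with them, in both directions. Of liver genes, Alb, the serum albumin gene, was at 0.0486 FPKM or less in replicates 1 and 2 and at 35.1 to 102 FPKM in replicates 3 to 5. The 8 liver markers together added up to 24.5 to 29.8 FPKM and 86.5 to 207 FPKM, and 7 of them had no overlap between the sets. Serpina1c overlapped, at 24.4 to 29.8 FPKM and 25.6 to 42.6 FPKM, and made up nearly all of the sums in replicates 1 and 2. The sum over the 8 blood endothelium markers went the other way. It was 92.0 to 97.0 FPKM in replicates 1 and 2 and 69.0 to 74.4 FPKM in replicates 3 to 5. Of the 8 genes 4 had no overlap between the sets, and Cdh5, Kdr, Flt1 and Egfl7 overlapped. Pecam1, an endothelial adhesion molecule, was at 45.3 to 46.3 FPKM and 27.6 to 32.0 FPKM, and Tek, Emcn and Esam were also lower in replicates 3 to 5 without overlap. So were Rgs5 of pericytes, Mmrn1 of lymphatic endothelium and Cxcl13 of reticular cells, while Madcam1 of reticular cells was higher. These were 1 of 6 tested markers of pericytes and smooth muscle, 1 of 5 of lymphatic endothelium and 2 of 11 of reticular cells. The other tested markers of these lists overlapped between the sets. Of the 77 tested genes that build, anchor or degrade collagen or are TGF-beta and PDGF ligands and receptors, 6 (7.79%) had no overlap between the sets. P4ha1, which hydroxylates collagen prolines (12.9 to 16.8 and 19.9 to 26.5 FPKM), Adamts14, Mmp9 and Tgfb1 were higher in replicates 3 to 5, and Crtap, a subunit of the prolyl 3-hydroxylase complex (17.5 to 18.1 and 12.1 to 15.3 FPKM), and Aspn were lower. The part of the liver and endothelial transcripts in the collagen levels was not tested.

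**Figure D4:**
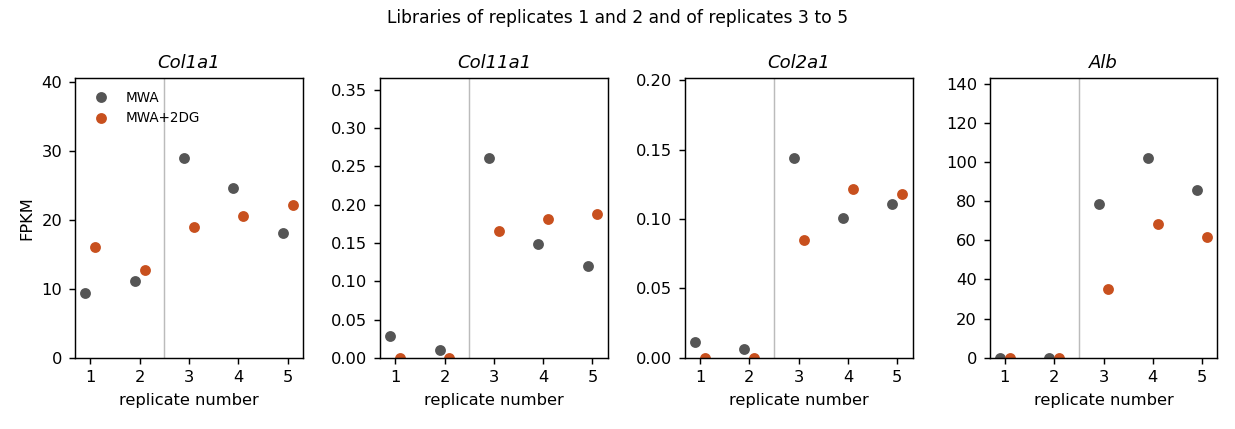
FPKM of Col1a1, Col11a1, Col2a1 and the liver gene Alb by replicate number, on linear axes from 0, with MWA in gray, MWA+2DG in orange and a line between replicates 2 and 3. In all 4 genes every library of replicates 3 to 5 lies above every library of replicates 1 and 2.

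The treatment difference was therefore also computed within each set. In replicates 1 and 2 all 19 members had a log2 fold change above 0, with a median of 0.19, where 51.2% of all tested genes were above 0. In replicates 3 to 5, 8 of the 19 were above 0, with a median of −0.09, where the share of all genes was 52.6%. For 11 members the difference was above 0 in replicates 1 and 2 and below 0 in replicates 3 to 5. All members were read from the same libraries, so their directions are not independent of each other. Replicates 1 and 2 alone called 3 members higher (Col1a1, Col5a1 and Col14a1) and none lower, beside 2.78% and 2.17% of all genes, and replicates 3 to 5 alone called Col11a2 higher and Col3a1, Col6a1 and Col6a2 lower, beside 1.26% and 2.89% of all genes.

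Col3a1 showed the widest gap between the sets, with a log2 fold change of 0.47 in replicates 1 and 2 and −0.44 in replicates 3 to 5. The difference between these effects, tested as an interaction term in limma, was −0.91 ± 0.28 (SE). Interaction terms with P below 0.05 were found in 5 of the 19 members, against 2.56% of all genes tested, and none passed adjustment (adjusted p of 1.00 for each, limma). Besides Col3a1 they were Col1a1 (0.45 and −0.18), Col14a1 (0.41 and −0.17), Col6a1 (0.19 and −0.30) and Col6a2 (0.15 and −0.34). Col11a2 and Col20a1 had differences above 0 in both sets, 0.14 and 0.37 for Col11a2 and 0.15 and 0.31 for Col20a1, as had Col4a1, Col4a2, Col18a1, Col5a1, Col23a1 and Col6a4.

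**Figure D5:**
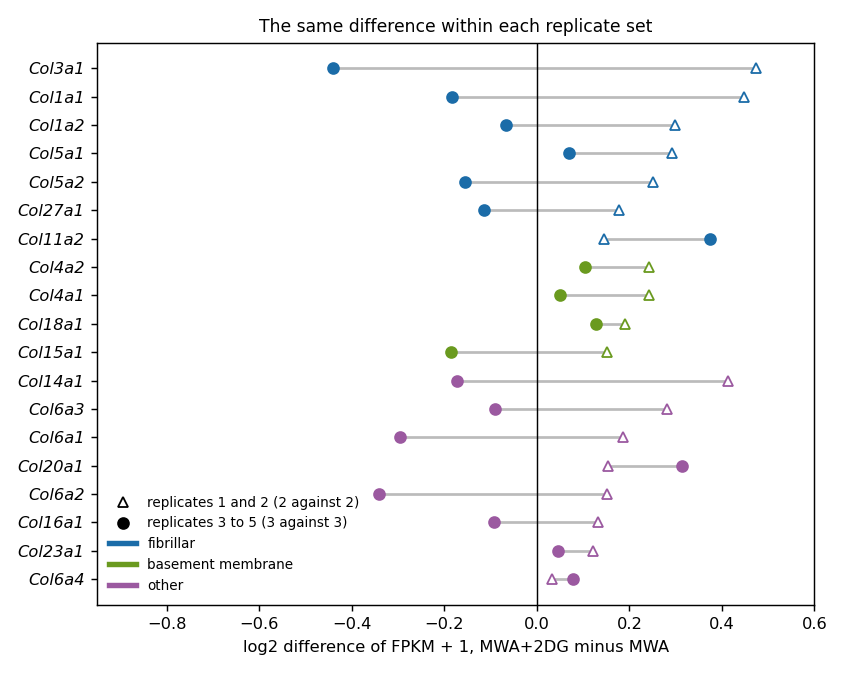
Log2 difference of FPKM + 1, MWA+2DG minus MWA, for each of the 19 tested collagen genes in replicates 1 and 2 (triangles, 2 against 2 libraries) and in replicates 3 to 5 (circles, 3 against 3), colored by class. All 19 triangles lie above 0 and 8 of the 19 circles do, with the longest line for Col3a1.

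Genes that build, anchor or degrade collagen, and TGF-beta and PDGF ligands and receptors, were read from 7 lists of 109 genes. Of these, 77 passed the filter and none was called in either direction. Chain hydroxylation and folding (15 of 19 tested, median log2 fold change 0.00) was led by P4hb at 101 ± 7.20 and 105 ± 8.12 FPKM, the isomerase subunit of prolyl hydroxylase, and by the prolyl isomerase Ppib at 56.4 ± 7.24 and 53.6 ± 1.52 FPKM (SD, n = 5 for each group, MWA first). Propeptide cleavage and crosslinking (5 of 13, median −0.02) was led by Pcolce, an enhancer of propeptide removal, at 13.6 ± 1.99 and 13.0 ± 1.06 FPKM, and by the procollagen protease Bmp1 at 2.12 ± 0.251 and 2.12 ± 0.337 FPKM. Collagen breakdown (14 of 21, median −0.01) was led by the protease inhibitor Timp2 at 26.3 ± 3.41 and 26.7 ± 5.70 FPKM and by Pepd, which splits proline dipeptides, at 12.8 ± 1.54 and 12.2 ± 1.09 FPKM. In each of these genes the group means differed by less than the larger SD.

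Collagen receptors (6 of 9, median −0.01) were led by the integrin chain Itgb1 at 49.7 ± 4.30 and 48.3 ± 6.78 FPKM and by the receptor kinase Ddr2 at 3.10 ± 0.705 and 3.08 ± 0.471 FPKM. Basement membrane partners (12 of 16, median 0.05) included Sparc, a collagen-binding protein, at 45.5 ± 5.23 and 45.9 ± 3.70 FPKM, and the laminin chain Lamc1 at 7.77 ± 1.08 and 8.09 ± 1.28 FPKM. Fibril partners (13 of 16, median −0.02) were led by the proteoglycans Dcn at 23.2 ± 3.47 and 23.2 ± 5.45 FPKM and Bgn at 15.6 ± 1.86 and 15.4 ± 1.24 FPKM. TGF-beta and PDGF ligands and receptors (12 of 15, median 0.07) were led by Tgfbr2 at 30.8 ± 2.44 and 32.4 ± 3.44 FPKM and by Tgfb1, a ligand that induces collagen genes, at 29.0 ± 3.20 and 29.4 ± 4.72 FPKM. Within the replicate sets the lists did not behave alike. Log2 fold changes above 0 numbered, in replicates 1 and 2 and then in replicates 3 to 5, 10 and 4 of 13 fibril partners, 11 and 2 of 14 breakdown genes, 5 and 0 of 6 receptors and 10 and 7 of 12 basement membrane partners. They numbered 9 and 8 of 15 for hydroxylation and folding, 2 and 2 of 5 for cleavage and crosslinking and 7 and 7 of 12 for TGF-beta and PDGF, beside 51.2% and 52.6% of all genes.

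Marker lists of 9 cell types held 73 entries, of which 47 passed the filter, and none was called. Fibroblastic reticular cell markers (11 of 11 tested, median log2 fold change 0.02) summed to 1361 to 2022 FPKM with MWA and 1473 to 2283 FPKM with MWA+2DG, and Cxcl13 was at 247 ± 97.3 and 262 ± 67.8 FPKM. The sums were 67.1 to 82.9 and 64.7 to 92.9 FPKM for pericytes and smooth muscle (6 of 8, median 0.05). For blood endothelium they were 69.2 to 95.4 and 69.0 to 97.0 FPKM (8 of 8, median −0.01), and they divided by replicate set as given above. For lymphatic endothelium they were 908 to 1418 and 935 to 1688 FPKM (5 of 6, median −0.01). Ccl21a, at 891 to 1674 FPKM, is on both the reticular and the lymphatic list and made up most of both sums. The next highest lymphatic marker, Lyve1, was at 7.10 to 19.8 FPKM. Adipocyte markers (5 of 8, median 0.77) summed to 9.82 to 23.4 FPKM with MWA and 12.2 to 107 FPKM with MWA+2DG. Adipoq, the adiponectin gene, was at 10.9 FPKM in MWA+2DG replicate 5 and 4.59 FPKM in MWA+2DG replicate 2, and at 1.83 FPKM or less elsewhere. In replicate 5 of MWA+2DG, 5 of the 19 tested collagen genes had their highest and 5 their lowest level. Other libraries held many extremes too, with 6 lowest levels in MWA replicate 1 and 4 highest in MWA replicate 3. The part of adipose tissue in these levels was not tested. The other lists were skeletal muscle (1 of 8 tested, 6.77 to 7.74 and 5.90 to 8.41 FPKM), epithelium (2 of 8, 2.75 to 6.80 and 2.48 to 14.8 FPKM), cartilage and bone (1 of 8, 1.70 to 3.86 and 2.49 to 4.04 FPKM) and liver (8 of 8, 24.8 to 207 and 24.5 to 157 FPKM). Mylpf, at 4.80 to 6.77 FPKM, made up most of each skeletal muscle sum, and the other muscle markers were at 1.52 FPKM or less. Of the epithelial markers, Krt8, Krt18, Krt14, Krt5, Krt19 and Cdh1 were highest in MWA+2DG replicate 5, and Epcam and Csn2 were not. Krt5 was at 1.29 FPKM there and at 0.0968 FPKM or less elsewhere. The part of epithelial tissue in the collagen levels was not tested.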

How the data were processed

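RNA from 10 TDLNs was sequenced as strand-marked poly(A) libraries with molecular identifiers, from 5 μg of total RNA per the labels and 1 μg in the study's methods. The authors deposited FPKM per gene for each library, made with StringTie and ballgown after fastp and HISAT2. The submitters' processing notes name cutadapt 1.9, HISAT2 2.0.4, UMI-tools, StringTie 1.3.4d and mm9, with no annotation release. FPKM hold no counts, so depth, counting error and count models could not be had. Symbols matched 33541 of 33643 identifiers, and 57 shared symbols were summed. Genes averaging 1 FPKM or more were fitted on log2(FPKM + 1), a scale that understates changes of low genes, with limma 3.58.1 in R 4.3.3 (lmFit, eBayes, no covariate, Benjamini-Hochberg over all 13334 genes). The log base, pseudocount and filter were choices made here. On simulated data, 182 of 200 genes changed by a log2 fold of 1 passed an adjusted p of 0.05, as did 7 unchanged genes. The changed genes were drawn from the more abundant ones, so this does not measure the power for smaller changes or lower genes. For single values, a two-sided exact permutation test took all 252 regroupings of the libraries (SciPy 1.17.1). The labels do not name the mice behind the libraries, and p-values measure the spread between these libraries.

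The members and all gene lists were chosen with earlier results of these data known. The named genes were every tested member, with values per library for the 4 of highest mean in each class and any member past the rule, and the 2 of highest mean FPKM in each related list. Col20a1, Col2a1, Col11a1, Col6a5, Acan, Chad, Alb, Serpina1c, Cd3e, Rxrb, Adipoq, Ccl21a and Lyve1 were named after their values had been seen. So were Cdh5, Kdr, Flt1, Egfl7, Mylpf, the epithelial markers and the list genes without overlap between replicate sets. Col21a1 and Ibsp, on the lists, were not analysed here. Alternatives were a pseudocount of 0.1, no filter, filters of 0.1 and 5 FPKM, limma-trend, median ratio scaling, quantile normalization, rescaling to a total of 1000000, the replicate number as a block, the replicate set as a term and leaving out each library. The replicate sets alone and their interaction were added after the data had been seen. Exon overlaps were read from GENCODE M21, of which 13 members had at least 1, 7 of them tested. Replicate numbers were checked for pairing by the correlation of same-numbered libraries' deviations from their group means and did not meet the criterion.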

Additional observations from a re-analysis of the deposited data

Results flagged for a closer look

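In MWA+2DG, Col6a4 was lowest in replicate 5, at 3.09 FPKM, with the nearest library at 4.02 FPKM, a gap of 0.738 of the group's range. It was found by Dixon's criterion among 48 sets of 5 values looked at, where chance alone gives about 1 in 20.

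The treatment effect in replicates 3 to 5 minus that in replicates 1 and 2 was −0.91 for Col3a1, −0.63 for Col1a1, −0.59 for Col14a1, −0.49 for Col6a2 and −0.48 for Col6a1. Each stood out by an interaction term with an unadjusted P under 0.05, as did 2.56% of all genes, and none passed adjustment over all genes (adjusted p of 1.00 in limma), and the sets themselves were found in the data.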

How the results depend on the processing

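Collagen genes called higher numbered 2 with a pseudocount of 0.1, after rescaling and after quantile normalization, where Col20a1 was the second, 0 with a filter of 5 FPKM, which leaves 7 collagen genes without Col11a2, and 3 in replicates 1 and 2 alone. Collagen genes called lower numbered 3 in replicates 3 to 5 alone and 0 when any library was left out, while those called higher then ranged from 0 to 2. Among all genes, 199 were higher with a filter of 0.1 FPKM, 69 with a filter of 5, 328 after rescaling and 371 in replicates 1 and 2 alone. Lower genes numbered 161 with a filter of 5 FPKM, 159 after rescaling and 386 in replicates 3 to 5 alone. Leaving out 1 library gave 80 to 222 higher, 177 to 315 lower and 0 to 1 gene past an adjusted p of 0.05, the 1 without MWA replicate 2. The median log2 fold change of other collagens was −0.12 with a filter of 5 FPKM and −0.091 in replicates 3 to 5 alone, and that of fibrillar collagens 0.29 in replicates 1 and 2 alone and −0.11 in replicates 3 to 5 alone. With no filter the medians over all members were 0.0077 (basement membrane), 0.0082 (fibrillar) and 0.0049 (other), since most added genes lie near 0 on this scale. With 1 library left out these medians ranged from −0.01 to 0.16 (fibrillar), 0.05 to 0.21 (basement membrane) and 0.00 to 0.09 (other). Signs turned for Col27a1 with a pseudocount of 0.1 (−0.011) and with median ratio scaling (−0.0025), and for Col16a1 after rescaling (0.049). With 1 library left out the log2 fold change ranged from −0.13 to 0.25 for Col1a1, −8.45e-06 to 0.16 for Col1a2, −0.25 to 0.036 for Col3a1, −0.051 to 0.076 for Col5a2, −0.090 to 0.16 for Col27a1, −0.14 to 0.016 for Col15a1, −0.024 to 0.15 for Col14a1, −0.058 to 0.082 for Col16a1, −0.019 to 0.14 for Col23a1 and −0.018 to 0.14 for Col6a3. Apart from the constructions named, the cause was not tested.

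With the replicate number as a block, 164 genes were higher and 285 lower, none with an adjusted p under 0.05, and 1 collagen gene was higher. Correlations of same-numbered libraries were 0.33, 0.50, 0.11, 0.03 and 0.15, and 3 of 10 libraries correlated best with their own number, so the numbers were not taken to pair the mice. The intervals of the collagen fold changes reached from −0.59 to 0.70 on the log2 scale, which bounds what 5 libraries a group could show.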
